A study of Mus musculus with 12 samples.

Results

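The paired-like homeobox genes examined here are Otx1, Otx2, Pitx1, Pitx3, Prrx1, Alx1, Alx4 and Gsc, 8 of the 21938 protein-coding genes annotated on chromosomes 1 to 19, X and Y. They were chosen from the values described below, after peaks of both deposited lists had been seen at homeobox genes, and were located by the GENCODE mouse annotation. A peak was given to a gene when it shared at least 1 bp with the gene body or with the 10 kb on either side of any of its start sites. By this rule 16 of the 19773 Mof+/+ peaks and 14 of the 731 Mof+/- peaks belonged to the 8 genes. Since positions and strengths of these peaks chose the genes, the values below are descriptions and carry no test.

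MOF, also called KAT8, is the lysine acetyltransferase that acetylates histone H4 at lysine 16, a mark that loosens chromatin. Its location was measured by chromatin immunoprecipitation and sequencing (ChIP-seq) in visceral white adipose tissue of mice of the strain C57BL/6 (backcrossed to C57BL/6J, per the study's methods) aged 8 weeks and fed a standard diet. The groups were wild type mice, with both copies of Mof (Mof+/+), and mice heterozygous for Mof (Mof+/-), which carry 1 intact copy in every cell rather than in adipocytes alone. For either genotype, 2 libraries each of MOF ChIP (abcam antibody), H3 ChIP and input are labelled, 12 in all, while the series description speaks of 2 control and 3 Mof+/- animals and the study's reporting form of 2 littermates per genotype. The values come from 2 lists of MOF peaks, a Mof+/+ and a Mof+/- one, neither of which names its libraries. No value therefore has a replicate, the number of reads behind a list is unknown, and variation from mouse to mouse is not known for any value. The tissue was minced whole, with no sorting of cells described. Within 1 kb of a start site, 41.0% of all protein-coding genes had a Mof+/+ peak and 1.32% a Mof+/- peak. At that distance Mof+/+ peaks lay at 4 of 8 adipocyte markers, 4 of 5 B cell markers and 5 of 5 T cell markers. The adipocyte markers with one were Adipoq, Plin1, Lipe and Cfd, and those without were Lep, Cidec, Fabp4 and Pparg. Mof+/+ peaks also lay at 2 of 4 markers of adipocyte progenitors, 1 of 4 of endothelial cells and 1 of 4 of macrophages. They lay at 0 of 4 markers of mesothelial cells and 0 of 3 of neurons. The Mof+/- list had such peaks at the B cell gene Pax5 and the progenitor gene Pdgfra and at none of the other markers listed. Peaks from whole tissue are not tied to a cell type, and fewer cells with MOF at a site cannot be told apart from less MOF per cell.

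Paired-like genes encode transcription factors whose DNA-binding homeodomain resembles that of the Pax proteins, without the paired box of that family. They act mainly in the embryo, where they pattern the head, the sense organs, the pituitary and the limbs, and most are silent in the adult tissues in which they have no role. Otx1 and Otx2 specify forebrain, midbrain and sense organs. Pitx1 directs hindlimb identity and pituitary development, and Pitx3 directs the lens and the dopaminergic neurons of the midbrain. Prrx1, Alx1 and Alx4 act in the mesenchyme of the face and limbs, and Gsc in the organizer of the early embryo. Homeodomains of the Otx, Pitx and Gsc type carry a lysine at position 50 and favour the core TAATCC, while those of Prrx and Alx carry a glutamine there and bind as pairs to a palindrome of TAAT and ATTA.

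Sequences under chosen summits of the 7 genes with a peak are shown first, so that the base composition of the sites can be seen. At each gene but Pitx1 the window holds the strongest Mof+/+ summit, while at Pitx1 a site in coding sequence and the site where the genotypes differed most are shown. A summit is the base at which the peak caller found the highest enrichment. All are from GRCm38.p6, written 5′ to 3′ on the strand of the gene, with 60 bases on either side of the summit or summits and CG dinucleotides in capitals. None lies in an annotated untranslated region. For Otx1, Alx1, Gsc and the start-proximal site of Pitx1 the window holds the summits of both genotypes. For Otx2, Pitx3, Alx4 and the coding site of Pitx1 it is centred on the Mof+/+ summit.
Otx1, chr11:21994141-21994426, minus strand: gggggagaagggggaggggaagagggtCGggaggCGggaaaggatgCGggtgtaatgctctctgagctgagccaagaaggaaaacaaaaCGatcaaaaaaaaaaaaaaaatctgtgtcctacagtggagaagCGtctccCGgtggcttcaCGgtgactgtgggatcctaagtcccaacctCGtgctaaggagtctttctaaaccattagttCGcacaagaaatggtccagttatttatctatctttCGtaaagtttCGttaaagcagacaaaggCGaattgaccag
Otx2, chr14:48664703-48664823, minus strand: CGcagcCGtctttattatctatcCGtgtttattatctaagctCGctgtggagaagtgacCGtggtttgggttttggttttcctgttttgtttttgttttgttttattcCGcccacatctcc
Pitx1 coding site, chr13:55826537-55826657, minus strand: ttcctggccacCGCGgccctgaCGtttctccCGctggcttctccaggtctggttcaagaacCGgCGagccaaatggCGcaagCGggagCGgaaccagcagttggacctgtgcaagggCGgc
Pitx1 start-proximal site, chr13:55835473-55835634, minus strand: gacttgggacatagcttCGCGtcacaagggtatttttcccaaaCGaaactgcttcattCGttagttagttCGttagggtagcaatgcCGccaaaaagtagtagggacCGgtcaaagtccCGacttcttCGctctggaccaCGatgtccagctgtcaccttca
Pitx3, chr19:46148820-46148940, minus strand: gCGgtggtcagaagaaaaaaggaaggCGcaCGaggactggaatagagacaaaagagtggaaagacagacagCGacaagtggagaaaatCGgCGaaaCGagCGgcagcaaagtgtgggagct
Alx1, chr10:103027282-103027406, minus strand: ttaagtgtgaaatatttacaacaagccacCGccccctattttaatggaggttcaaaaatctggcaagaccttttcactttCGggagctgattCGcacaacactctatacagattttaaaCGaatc
Alx4, chr2:93647044-93647164, plus strand: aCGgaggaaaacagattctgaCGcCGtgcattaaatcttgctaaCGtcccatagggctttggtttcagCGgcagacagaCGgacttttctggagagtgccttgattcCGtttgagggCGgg
Gsc, chr12:104477202-104477326, minus strand: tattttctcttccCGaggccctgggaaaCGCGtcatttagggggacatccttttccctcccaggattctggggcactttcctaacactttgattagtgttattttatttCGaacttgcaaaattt
The window at Otx1 is 286 bases long and holds 12 CG dinucleotides, and the Mof+/+ and Mof+/- summits are its bases 61 and 226. At Alx1 the Mof+/+ and Mof+/- summits are bases 65 and 61 of the 125 shown, and at Gsc they are also bases 65 and 61 of 125. The Pitx1 coding site is the richest in CG, with 10 in 121 bases. The windows at Alx1 and Gsc hold 4 each.

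Mof+/+ peaks were found at 7 of the 8 genes, Prrx1 being without one, against 48.3% of all protein-coding genes under the same rule. Mof+/- peaks were found at 6 of 8, with Alx4 and Prrx1 without one, against 2.38% of all genes. All 6 also had a Mof+/+ peak, and 2.32% of all genes had peaks of both lists. Of all genes with a Mof+/+ peak in the window, 4.80% had a Mof+/- peak as well. Within 1 kb of a start site alone, 6 of the 8 genes had a Mof+/+ peak (41.0% of all genes) and 5 had a Mof+/- peak (1.32% of all genes). The rule used this contrast, so nothing is read from the difference between the 8 genes and these background shares.

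**Figure D1:**
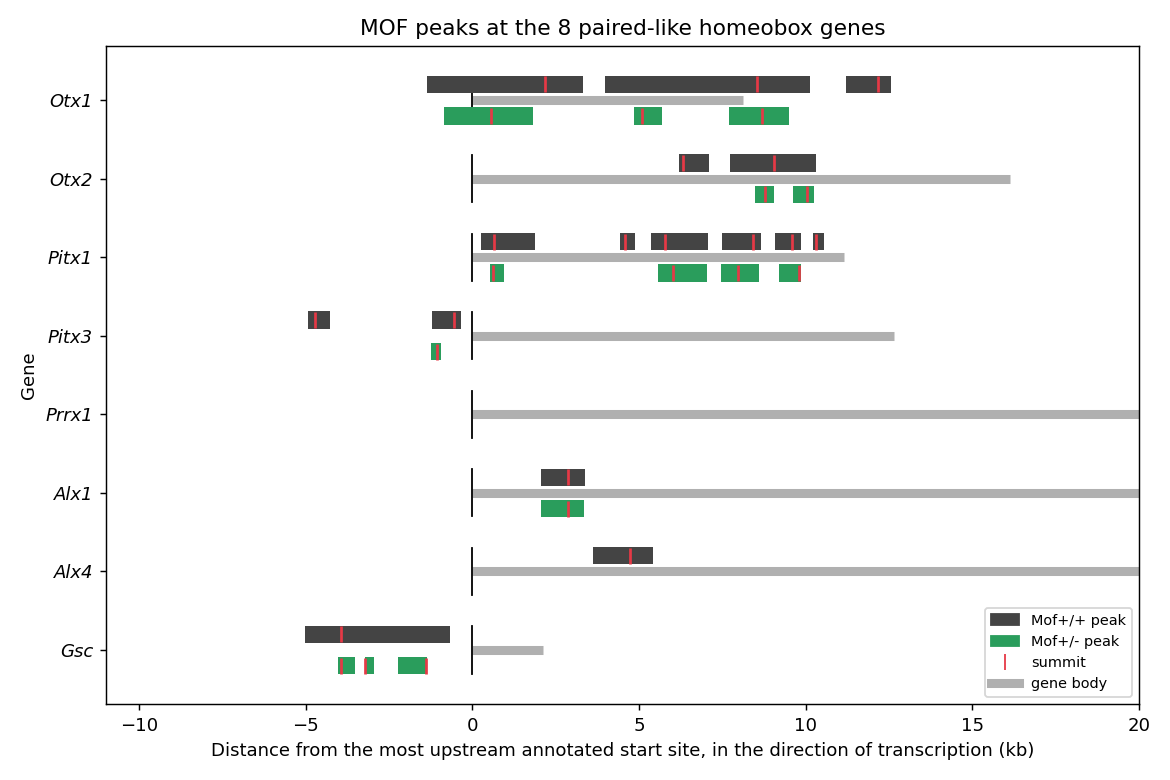
Peaks of the Mof+/+ list (dark, above) and the Mof+/- list (green, below) at each gene, by distance from the most upstream annotated start site in kb, positive in the direction of transcription, with summits in red and gene bodies in grey. Gene bodies longer than 20 kb (Prrx1, Alx1 and Alx4) run past the right edge. At Otx1, Otx2 and Gsc several short Mof+/- peaks lie within longer Mof+/+ peaks, and Prrx1 has none of either list.

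Otx1 had the strongest peaks of the 8 genes in both lists. The gene lies on chromosome 11 from 21994764 to 22002897 on the minus strand, with 3 annotated start sites. Its strongest Mof+/+ peak ran from 21992760 to 21998914, a length of 6155 bp, and had a fold enrichment of 7.30 (95% counting interval 5.06 to 10.2, 32 fragments). Its summit at 21994366 lay past the 3′ end of the gene, in sequence annotated as intergenic. The strongest Mof+/- peak ran from 21993405 to 21995204 and had a fold enrichment of 9.51 (6.51 to 13.4, 30 fragments), with the summit at 21994201. These summits were 165 bp apart, their intervals overlapped, and the peaks ranked 122 and 2 by fold enrichment in their lists. Around the start sites, a Mof+/+ peak of 4660 bp (22000727 at its summit, fold enrichment 3.81, 2.49 to 5.59) covered a Mof+/- peak of 2663 bp with a fold enrichment of 6.13 (3.81 to 9.40). A Mof+/- peak of 822 bp in an intron had a fold enrichment of 4.94 and lay inside the long Mof+/+ peak. In all, peaks covered 10876 bp (51.1%) of the Otx1 window in Mof+/+ and 5285 bp (24.8%) in Mof+/-, the largest shares among the 8 genes in either genotype.

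The 10 kb limit of the window separated a pair of overlapping peaks downstream of Otx1. A Mof+/+ peak from 21990337 to 21991675 (fold enrichment 3.83) was 9940 bp from the nearest start site and so just inside. The Mof+/- peak that overlaps it, from 21990429 to 21991244 (fold enrichment 3.96), was 10371 bp away and just outside. At the other 7 genes the nearest peak outside the window was at least 79960 bp from a start site for Mof+/+ and at least 91730 bp for Mof+/-, both at Pitx3.

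Otx2 lies on chromosome 14 from 48657677 to 48673819 on the minus strand and has 10 annotated start sites. A Mof+/+ peak of 2582 bp from 48663496 to 48666077 had a fold enrichment of 5.41 (3.63 to 7.78, 27 fragments), with its summit in an intron. It contained both Mof+/- peaks of the gene, which were 565 bp and 637 bp long. The stronger had a fold enrichment of 5.52 (3.34 to 8.65, 17 fragments) and a summit 265 bp from the Mof+/+ one. The weaker, at 3.21 (1.78 to 5.43, 12 fragments), had the lowest fold enrichment and the lowest −log10 p-value (4.73) of the Mof+/- peaks at the 8 genes. Over an internal start site, a Mof+/+ peak of 902 bp with its summit at 48667511 had a fold enrichment of 3.05 (1.89 to 4.67), below the median of its list, and no Mof+/- peak overlapped it.

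Pitx1 carried the most peaks, 6 for Mof+/+ and 4 for Mof+/-. It lies on chromosome 13 from 55825051 to 55836192 on the minus strand, and the antisense gene Gm47071 runs across most of it. The 4 Mof+/- peaks each overlapped a different Mof+/+ peak, so the gene showed the same row of sites in both lists except for the 2 Mof+/+ peaks with no Mof+/- partner. Those were the one at the 3′ untranslated end (fold enrichment 2.88) and the one over an internal start site (2.90). Their −log10 p-values, 4.09 and 4.49, were below 4.72, the weakest in the Mof+/- list. In the coding sequence, the Mof+/+ peak with its summit at 55826597 had a fold enrichment of 4.42 (2.75 to 6.78) and the Mof+/- peak 4.60 (2.65 to 7.51), both starting at 55826325. In the intron next to it, the values were 4.57 (3.11 to 6.50, 29 fragments) in Mof+/+ and 7.36 (4.78 to 10.9, 23 fragments) in Mof+/-. Further upstream in an intron they were 3.66 (2.37 to 5.41) and 4.36 (2.60 to 6.92).

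The site nearest the upstream start of Pitx1 was the exception among all overlapping pairs, since the counting intervals of the genotypes did not overlap there. The Mof+/+ peak had a fold enrichment of 2.31 (1.44 to 3.54), the lowest of the Mof+/+ peaks at the 8 genes, and the Mof+/- peak 6.75 (4.29 to 10.1), with summits 41 bp apart. The Mof+/+ peak had a −log10 p-value of 3.84, while the weakest in the Mof+/- list was 4.72. At that limit this Mof+/+ peak, and so the pair, would not be listed. The fragments were close in number, 19 in Mof+/+ and 21 in Mof+/-, while the background the fold enrichment rests on was 7.65 fragments in Mof+/+ and 2.26 in Mof+/-. The latter is the lowest value in the Mof+/- list and recurs at Otx1, Otx2, Pitx3 and Gsc, so it is not a measure of input at this site. The part of this in the difference was not tested, and the intervals cover counting error only. Both summits also lay in an exon of the long noncoding gene Gm28760.

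Pitx3 lies on chromosome 19 from 46135685 to 46148326 on the minus strand, and its peaks were upstream of it. A Mof+/+ peak of 881 bp, 340 bp from a start site, had a fold enrichment of 4.65 (2.92 to 7.05, 20 fragments). A Mof+/- peak of 313 bp overlapped its far end by 284 bp, with a summit 491 bp away and a fold enrichment of 3.68 (1.99 to 6.34, 11 fragments). The other Mof+/+ peak of the window (fold enrichment 3.98) lay 4271 bp from Pitx3 but 17 bp from a start site of Gbf1, a divergent neighbour that encodes a factor of Golgi transport, and had no Mof+/- partner.

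Gsc, on chromosome 12 from 104471209 to 104473330 on the minus strand, had no peak over its own body. A Mof+/+ peak of 4353 bp from 104474005 to 104478357 began 675 bp upstream of its start site and covered Gm10000, a noncoding gene transcribed away from the same promoter region. Its fold enrichment was 5.31 (3.45 to 7.86, 23 fragments). It contained 3 Mof+/- peaks with fold enrichments of 5.21 (3.11 to 8.27), 3.71 (2.14 to 6.05) and 5.53 (3.40 to 8.57). The summit of the last, at 104477266, was 4 bp from the Mof+/+ summit at 104477262.

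Alx1 and Alx4 had a single site each, in an intron. At Alx1 (chromosome 10, 102998707 to 103030215, minus strand) the lists gave nearly the same peak, from 103026841 to 103028155 in Mof+/+ and from 103026879 to 103028155 in Mof+/-, with summits 4 bp apart. The fold enrichment was 4.47 (2.81 to 6.78, 20 fragments) in Mof+/+ and 3.61 (2.22 to 5.59, 18 fragments) in Mof+/-. The peak covered 1315 bp in one list and 1277 bp in the other, the closest match in length among the 6 genes with peaks of both lists. At Alx4 (chromosome 2, 93642384 to 93681339, plus strand) a Mof+/+ peak of 1808 bp from 93646002 to 93647809 had a fold enrichment of 4.42 (2.75 to 6.78, 19 fragments). No Mof+/- peak lay in the Alx4 window, and the nearest was 5024299 bp from a start site.

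Prrx1, on chromosome 1 from 163245119 to 163313710, had no peak of either list in a window of 78592 bp. Its nearest Mof+/+ peak (fold enrichment 3.98) was 89761 bp from a start site and its nearest Mof+/- peak 2328030 bp. A gene without a listed peak is one at which no site passed the caller's threshold at this depth, not one shown to lack MOF.

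**Figure D2:**
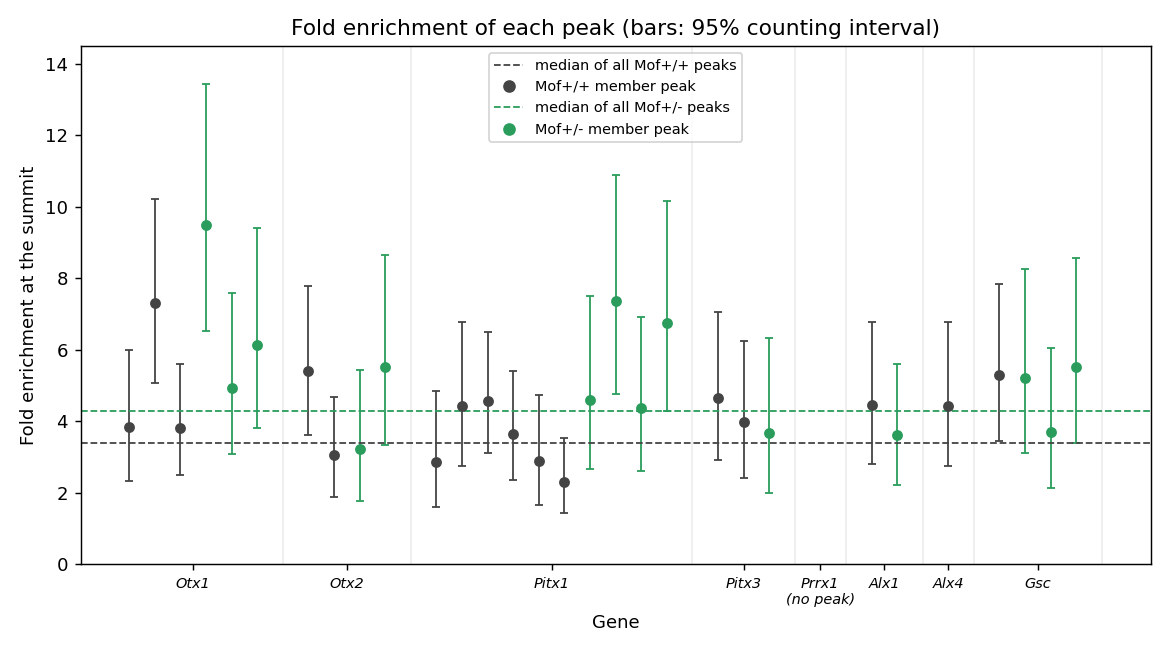
Fold enrichment at the summit for each of the 16 Mof+/+ (dark) and 14 Mof+/- (green) peaks, by gene, with 95% exact Poisson counting intervals. Dashed lines are the medians of all peaks on the assembled chromosomes, 3.40 in Mof+/+ and 4.29 in Mof+/-. The Mof+/- peak past the 3′ end of Otx1 is the highest point, at 9.51.

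Across the 16 Mof+/+ peaks it ran from 2.31 to 7.30 with a median of 4.20, against 3.40 for the whole list, and 12 of the 16 were above that. Across the 14 Mof+/- peaks it ran from 3.21 to 9.51 with a median of 5.08, against 4.29 for the whole list, and 10 of the 14 were above that. The peaks were also long, with a median of 1327 bp in Mof+/+ and 750 bp in Mof+/-, against 609 bp and 434.5 bp over the lists. Fragments over a single summit numbered 12 to 32 in Mof+/+ and 11 to 30 in Mof+/-, so each value rests on few fragments.

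Each of the 14 Mof+/- peaks overlapped a Mof+/+ peak (100%, 95% Wilson interval 78.5 to 100), against 84.8% of the whole Mof+/- list. Several of the 14 share a gene, so they are not independent and nothing is read from this difference. The 14 fell on 10 of the 16 Mof+/+ peaks, and 12 of them lay entirely inside one. With the Mof+/- peak just outside the Otx1 window counted as well, 11 of the 16 Mof+/+ peaks overlapped a Mof+/- peak (68.8%, 44.4 to 85.8), against 2.44% of the whole Mof+/+ list. The 5 without a partner were at Alx4, at the Gbf1 start in the Pitx3 window, at the internal start site of Otx2 described above and at the 2 sites of Pitx1 named above.

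In the 14 overlapping pairs, Mof+/- had the higher fold enrichment in 8 and fewer fragments at the summit in 13. The counting intervals of the fold enrichments overlapped in 13 of the 14. The median distance between summits was 358.5 bp, and in 9 pairs the summits were within 500 bp, of which 7 had the higher fold enrichment in Mof+/-. A long Mof+/+ peak enters several pairs, so the pairs are not independent, and each fold enrichment is relative to the background of its own list. The lowest background was 3.52 fragments in Mof+/+ and 2.26 in Mof+/-, a ratio of 1.56. The weakest listed −log10 p-value was 3.25 in Mof+/+ and 4.72 in Mof+/-, so weaker summits could enter the Mof+/+ list only. The part of background, depth and these unequal limits in the differences between the genotypes was not tested.

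**Figure D3:**
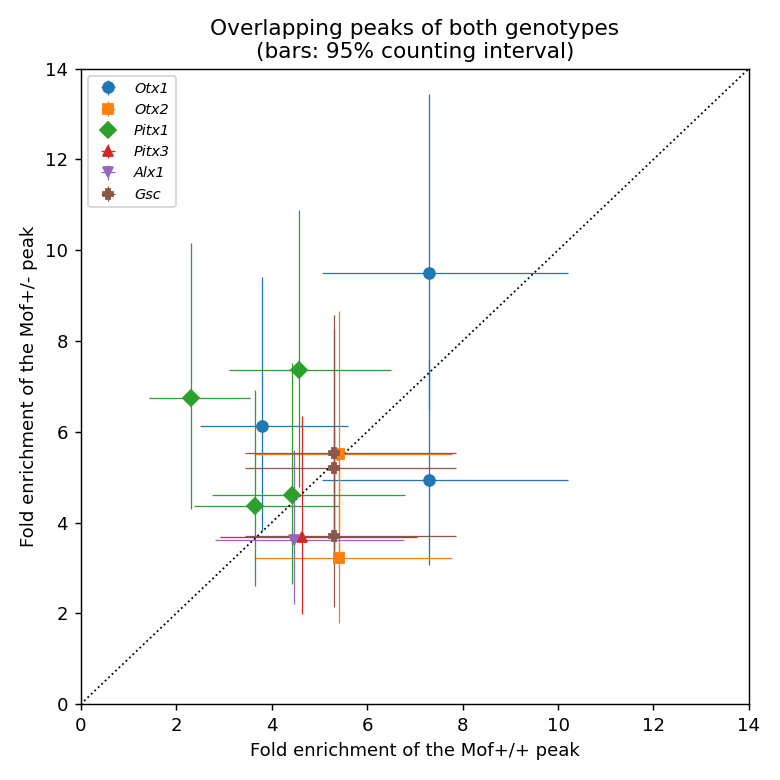
Fold enrichment of the Mof+/- peak against that of the Mof+/+ peak it overlaps, for the 14 pairs at 6 genes, with 95% exact Poisson counting intervals and the line of equality dotted. The pair at 2.31 and 6.75, at the upstream start of Pitx1, is the one whose intervals do not overlap.

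The length covered by peaks differed less between the genotypes here than over the genome. The 8 windows held 29411 bp covered by Mof+/+ and 13462 bp covered by Mof+/- peaks, a ratio of 2.18, while on all assembled chromosomes the lists covered 17268003 bp and 487100 bp, a ratio of 35.5. The genes were chosen from these peaks, so this is a description. Among the genes the covered length in Mof+/+ was largest at Otx1, followed by Pitx1 (6030 bp), Gsc (4353 bp) and Otx2 (3484 bp). In Mof+/- the order was Otx1, Pitx1 (3686 bp), Gsc (1699 bp), Alx1 (1277 bp), Otx2 (1202 bp) and Pitx3 (313 bp).

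**Figure D4:**
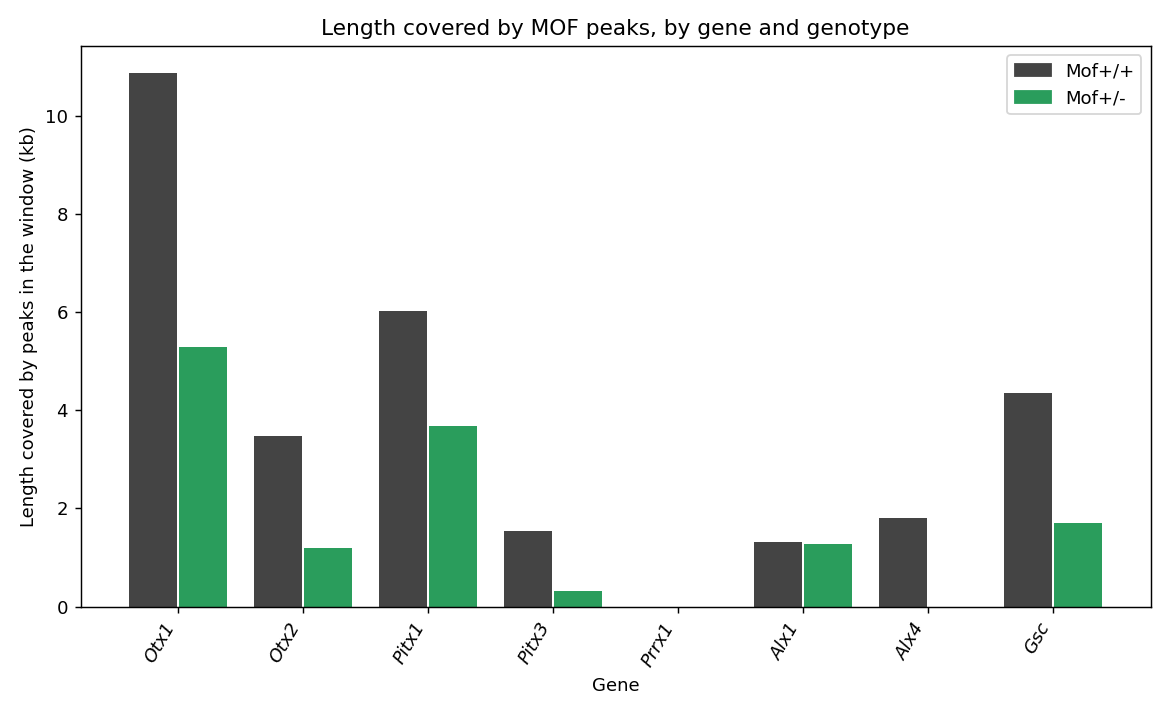
Length in kb covered by Mof+/+ (dark) and Mof+/- (green) peaks in the window of each of the 8 genes. Mof+/- bars are shorter than Mof+/+ bars at every gene with both, and Otx1 has the longest covered length, 10876 bp in Mof+/+ and 5285 bp in Mof+/-.

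Under the same window, 20 other paired-like genes were described, a selection from the family that does not hold all its members. Of these, 10 had a Mof+/+ peak, a share near the 48.3% of all protein-coding genes. A Mof+/- peak was found at 6 of the 20, against 2.38% of all genes. All were among the 10 with a Mof+/+ peak, so 6 of those 10 had one, against 4.80% of all genes with a Mof+/+ peak. Among the 6 were Dmbx1, Shox2 and Uncx, regulators of brain, limb and vertebral development. Shox2 had 6 Mof+/- peaks, all within 2 of its 3 Mof+/+ peaks, with a highest fold enrichment of 4.91 in Mof+/- and 6.42 in Mof+/+. At Dmbx1 the highest fold enrichments were 6.42 in Mof+/+ and 6.40 in Mof+/-. At Uncx they were 5.09 and 6.13, with the summits in an intron of the neighbouring gene 4930500L23Rik.

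Over the 20 genes, 12 of 13 Mof+/- peaks overlapped a Mof+/+ peak (92.3%, Wilson interval 66.7 to 98.6), against 84.8% of the whole Mof+/- list. Of the 13, 6 were at Shox2, so the peaks are not independent and nothing is read from this difference. Of the 26 Mof+/+ peaks of the 20 genes, 7 overlapped a Mof+/- peak (26.9%, 13.7 to 46.1), against 2.44% of the whole Mof+/+ list. Gsc2, Prrx2 and Sebox were among the 4 with Mof+/+ peaks only, and those of Prrx2 and Sebox had their summits within the neighbouring genes Asb6 and Sarm1. The 10 genes with no peak of either list included Crx, Drgx (named Prrxl1 in the annotation), Esx1, Hesx1, Isx, Mixl1, Phox2a and Vsx1.

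The Mof+/+ peaks at the members were mostly richer in CG dinucleotides than the median of their list, in 15 of 16. Per kb of peak, the median was 37.9 for the 16 Mof+/+ peaks, against 24.5 for the whole list (interquartile range 12.0 to 62.9), with a range from 6.72 at the Otx1 peak just inside the window to 87.6 at the internal start site of Pitx1. In Mof+/- the median was 33.6, against 33.1 for the whole list, with 7 of 14 above it. Cut sites of CviKI-1 (AGCC or AGCT, or the same with G as the first base), the enzyme used to digest the chromatin, had a median of 21.1 per kb in the Mof+/+ peaks, against 21.2 over the whole list. In Mof+/- the median was 19.0 per kb, against 13.4. The Mof+/- member peaks ran from 3.19 per kb at Pitx3 to 30.6 at Pitx1, so they lay on both sides of the list median, and the part of cut sites in the values above was not tested.

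Sites that paired-like proteins themselves can bind were searched on both strands in the 301 bp around each summit. The core TAATCC was found at 0 of the 16 Mof+/+ summits and 1 of the 14 Mof+/- summits, that of Pitx3. Over the whole lists 8.15% and 7.54% of summits held it, and 7.06% of the 32851 RefSeq promoters (250 bp before to 50 bp after the start). The palindrome, with 3 bases between TAAT and ATTA, was at none of the member summits, at 0.273% and 0.419% of all summits and in 0.487% of promoters. RefSeq promoters were at hand for 4 of the 8 genes, 7 in all, and held 6 (Prrx1) to 25 (Gsc) CG dinucleotides, against a median of 7 over all promoters. Of these, an Otx2 promoter held TAATCC and none of the 7 held the palindrome. The Pitx3 promoter held 20 and the 4 of Otx2 held 6, 8, 11 and 16. At Otx2 the promoter with 16 overlapped peaks of both lists, those with 6 and 8 a Mof+/+ peak only, and the one with 11 neither. Whether CG content bears on the presence of a peak was not tested.

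The genes outside the family with the most similar pattern were found among the 509 genes with peaks of both lists. Likeness was the distance to the median of the 6 members over covered length and highest fold enrichment in each list, on log2 scales in SD units. The nearest were Teddm2 (0.358), Rictor (0.367), Glul (0.423), Sall1 (0.490) and Tbx15 (0.558). Teddm2 and Glul gave the same Mof+/- covered length of 1349 bp and the same highest fold enrichments, 4.42 and 5.53, as neighbours whose windows share peaks. Sall1 and Tbx15 are developmental transcription factors, Rictor is a subunit of the mTORC2 kinase complex and Glul encodes glutamine synthetase.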

How the data were processed

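MOF ChIP, H3 ChIP and input libraries were described by the labels (12 libraries), and the 2 peak lists analysed were assigned to genotype by name. Reads were mapped by the authors to GRCm38 with snakePipes and peaks called against input with MACS2 (version 2.1.1.20160309.3 in the submitters' processing notes) at a q-value threshold of 0.1. The methods describe merging peaks up to 1000 bp apart with bedtools, but the lists analysed hold peaks closer than that. Whether peaks were called on pooled replicates is not given in the sources used here. The deposited fold enrichment is a ratio of fragments to the input-based background at the summit, each plus 1, with a −log10 p-value for that summit. The q-value, deposited as −log10, is treated as a score of the summit. The authors' summit offset was used as deposited. The H3 and input libraries were not analysed here on their own.

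Genes and start sites came from GENCODE M21, and sequence and promoters from RefSeq GRCm38.p6. Coordinates are counted from 1, and 0 peaks reached past a chromosome end. Fragments and background were solved from the fold enrichment and p-value, to within 0.001 in −log10 p. On 281 peaks simulated with the same formula, the known fragments were recovered in 100%, and the background was not compared. That does not show that the deposited values follow the formula. All member summits were solved. Intervals are exact Poisson for fragments, carried over to fold enrichment, and Wilson for shares, at 95%, and cover counting error only. Overlap meant at least 1 bp. Alternatives changed the window, the thresholds, the overlap and the merging of peaks. No test was made. Python 3.11.15, pandas 2.3.3, scipy 1.17.1, statsmodels 0.14.6 and samtools 1.23.1 were used.

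The members and lists were chosen with earlier results of these data known. Named by rule are the 8 members, the other paired-like genes with a Mof+/- peak or with no peak, genes overlapped by a Mof+/- peak at a member, and the 5 genes nearest in pattern. Gsc2, Prrx2, Sebox, Gbf1, Asb6, Sarm1 and 4930500L23Rik were named after their values were seen. Other paired-like genes were taken outside chromosome 18, and some of them are counted but not reported here by name. A planned comparison of the homeodomain proteins was not made, as no protein table was used here.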

Additional observations from a re-analysis of the deposited data

How the results depend on the processing

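Of 85 alternatives, those for each genotype's covered length not counted, 77 left a count, median or ratio within 1.5 times its value, or a share within its interval, and 8 did not. Counting only peaks within 1 kb of a start site left 9 Mof+/+ and 7 Mof+/- peaks at the members, and 6 other paired-like genes with a Mof+/+ peak, as the window was smaller, while a 50 kb window gave 16 such genes. Merging peaks within 1000 bp left 10 Mof+/+ and 9 Mof+/- peaks. With 50% of both peaks shared, 35.7% of the Mof+/- and 37.5% of the Mof+/+ member peaks overlapped, since many Mof+/- peaks were short pieces of a longer Mof+/+ peak. The covered lengths fell to 9618 bp in Mof+/+ and 4832 bp in Mof+/- with peaks within 1 kb of a start site alone, and their ratio ranged from 1.99 to 2.39 over the alternatives.

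No paired analysis was possible because the peak lists, 1 for Mof+/+ and 1 for Mof+/-, carry no replicate numbers. Leaving out each replicate in turn was not run for the same reason. Summits of 11 to 32 fragments limit the precision of every value, and a gene with no listed peak is not shown to lack MOF.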
